A study of Homo sapiens with 10 samples.

Results

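The genes described here are the BH3-only genes of the BCL2 family in the prostate cancer line PC-3. They were chosen by name, as every non-control spot whose gene name in the scanner output was PMAIP1, BBC3, HRK, BMF, BCL2L11, BID, BIK or BAD. All 8 genes were found, on 16 of 41000 probes and 25 of 43376 spots. Their RNA was read on Agilent Whole Human Genome arrays in a single color, with 10 arrays in 5 groups of 2 biological replicates by the labels. One group is untreated at 0 h, and the others spent 24 h in DMSO, in 60 µM luteolin, in 60 µM gefitinib or in both drugs at 60 µM each. Luteolin is a plant flavonoid and gefitinib is an inhibitor of the EGF receptor kinase, and the study used both as inhibitors of cyclin G-associated kinase. All groups share the single cell line, and the culture temperature was 35°C in the labels and 37°C in the methods.

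BH3-only proteins are the sensors of the mitochondrial pathway of apoptosis. Each carries the short BH3 helix, with which it binds the groove of the survival proteins BCL2, BCL-XL and MCL1, and some members also activate the pore-forming proteins BAX and BAK directly. The cell controls them in different ways. Noxa (PMAIP1), Puma (BBC3), Harakiri (HRK), Bim (BCL2L11) and Bmf (BMF) are governed largely through their transcription, whereas Bid (BID) is cleaved by caspase-8 and Bad (BAD) is held inactive by survival kinases through phosphorylation. An array shows the first kind of control and not the second.

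The start regions of 3 members that were called against DMSO and carry a searched motif of a stress or forkhead factor are shown to give the sequence context of the values that follow. They are the 250 bases before the RefSeq start site on GRCh38.p14, written 5′ to 3′ on the strand of the gene, with matches to the searched motifs in capitals.
PMAIP1 chr18:59899746-59899995 (plus strand): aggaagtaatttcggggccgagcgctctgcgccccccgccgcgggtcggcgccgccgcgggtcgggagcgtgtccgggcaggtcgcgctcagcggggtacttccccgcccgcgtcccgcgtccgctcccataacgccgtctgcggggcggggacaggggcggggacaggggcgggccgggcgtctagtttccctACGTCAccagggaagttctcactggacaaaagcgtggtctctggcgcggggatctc
HRK chr12:116881442-116881691 (minus strand): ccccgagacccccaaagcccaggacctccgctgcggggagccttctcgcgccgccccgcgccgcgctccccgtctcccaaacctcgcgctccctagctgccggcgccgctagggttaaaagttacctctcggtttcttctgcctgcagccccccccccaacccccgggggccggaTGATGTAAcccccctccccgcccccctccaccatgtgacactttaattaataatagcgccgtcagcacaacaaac
BCL2L11 chr2:111120664-111120913 (plus strand): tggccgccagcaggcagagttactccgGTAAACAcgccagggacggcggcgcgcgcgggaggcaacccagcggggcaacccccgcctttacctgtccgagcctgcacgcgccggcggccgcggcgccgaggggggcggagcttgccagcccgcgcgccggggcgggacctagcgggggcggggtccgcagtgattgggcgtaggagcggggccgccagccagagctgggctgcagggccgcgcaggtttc
Both strands were searched for 4 motifs, the cAMP response element half-site TGACGT, the CHOP-ATF4 composite TGATGNAA, the forkhead core GTAAACA and the E-box CACGTG, which do not contain each other. The capitals in PMAIP1 are the half-site read on the opposite strand, 56 to 51 bases before the start. Those in HRK are the CHOP-ATF4 composite, 75 to 68 bases before the start, and those in BCL2L11 are the forkhead core, 223 to 217 bases before it. Over 35116 start regions of this length, 7.1% held the half-site, 3.14% the composite, 2.98% the forkhead core and 6.34% the E-box. The promoter table held 7 of the 8 genes in 13 entries. The half-site also lay in both BAD entries and the E-box in the BBC3 entry and in BID entries, while the entries of BMF held no match. A match describes letters and not a bound site.

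The 75th percentile of the signal on an array ran from 539.8 to 864.6 on the 4 arrays whose labels include gefitinib and from 1041 to 1402 on the other 6. Its part in the results below was not tested except by quantile normalization. The share of probes well above background was 63.4% to 70.4%, with 0 saturated. Signals are given as a percentage of this 75th percentile, so that 100% is a level that most probes do not reach. All 16 member probes passed the filter on dim probes, and 12 were well above background on all 10 arrays. Levels are per probe, and the brightness of 2 probes is not compared as an amount of RNA. In a culture, fewer cells that express a gene and less RNA per cell cannot be told apart. The line was checked by its markers. KRT8, KRT18, EPCAM, CDH1 and VIM were well above background on all 10 arrays and CTNNA1 on 0 arrays, while KLK3, which this line is known to express little, was bright at 1038% to 3517%. Of 4 markers of leukocytes, endothelium and fibroblasts, 2 (PECAM1 and COL1A1) passed the filter and PTPRC was well above background on 0 arrays. The summed level of all 4 was 26.6% to 27.2% in untreated cells, 25.7% to 28.3% with DMSO, 28.4% to 49.1% on the luteolin-labelled arrays, 10.6% to 11.8% on the gefitinib-labelled arrays and 10.7% to 28.8% on those with both labels, and its part in the results was not tested.

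The scanner files of the 6 drug-treated arrays carry other treatments in their names than the sample labels. Luteolin-labelled arrays have files named for gefitinib, gefitinib-labelled arrays have files named for both drugs, and arrays with both labels have files named for luteolin. The labels are used below, and each difference from DMSO is the same measurement under either name, assigned to another drug. The arrays lay on 3 slides. Slide 1 held the first array of DMSO and of each drug group, and slide 2 the second array of each group except gefitinib, whose second array lay on slide 3 with an untreated array.

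Noxa rose in every drug-treated group, Bmf and 2 of the 3 Puma probes rose and Bid fell on the luteolin-labelled arrays, and Bim fell on the gefitinib-labelled arrays. A gene was called where limma gave a Benjamini-Hochberg adjusted p under 0.05 and the change against DMSO reached 2-fold, judged by its brightest probe. On the luteolin-labelled arrays, 2 of 8 genes rose (PMAIP1 and BMF) and 1 fell (BID). Over all 19718 genes tested, 7.22% rose and 6.17% fell in that comparison. On the gefitinib-labelled arrays, 3 of 8 rose (PMAIP1, BBC3 and HRK) and BCL2L11 fell, where 15.6% of all genes rose and 14.3% fell. On the arrays with both labels, the same 3 genes rose and 0 fell, where 12.1% of all genes rose and 7.69% fell. The BBC3 calls for gefitinib and for both were lost with quantile normalization and with normexp background correction. Counted by probe, 5 of 16 rose and 2 fell for luteolin, against 6.78% and 6.27% of all 28776 probes. For gefitinib 4 rose and 3 fell, against 14.8% and 13.6%, and for both drugs 3 rose and 0 fell, against 11.6% and 7.47%. The falls for gefitinib include the BCL2L11 probes A_23_P154426 and A_23_P309996, which were not well above background there. The median log2 change of the 8 genes was 0.47, 0.83 and 0.73 in the 3 comparisons, against 0.08, 0.22 and 0.16 for all genes. With the median of its probes standing for a gene, 5, 2 and 2 members were called, against 13%, 29.5% and 19.1% of all genes by the same rule. The 3 comparisons share the DMSO arrays.

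**Figure D1:**
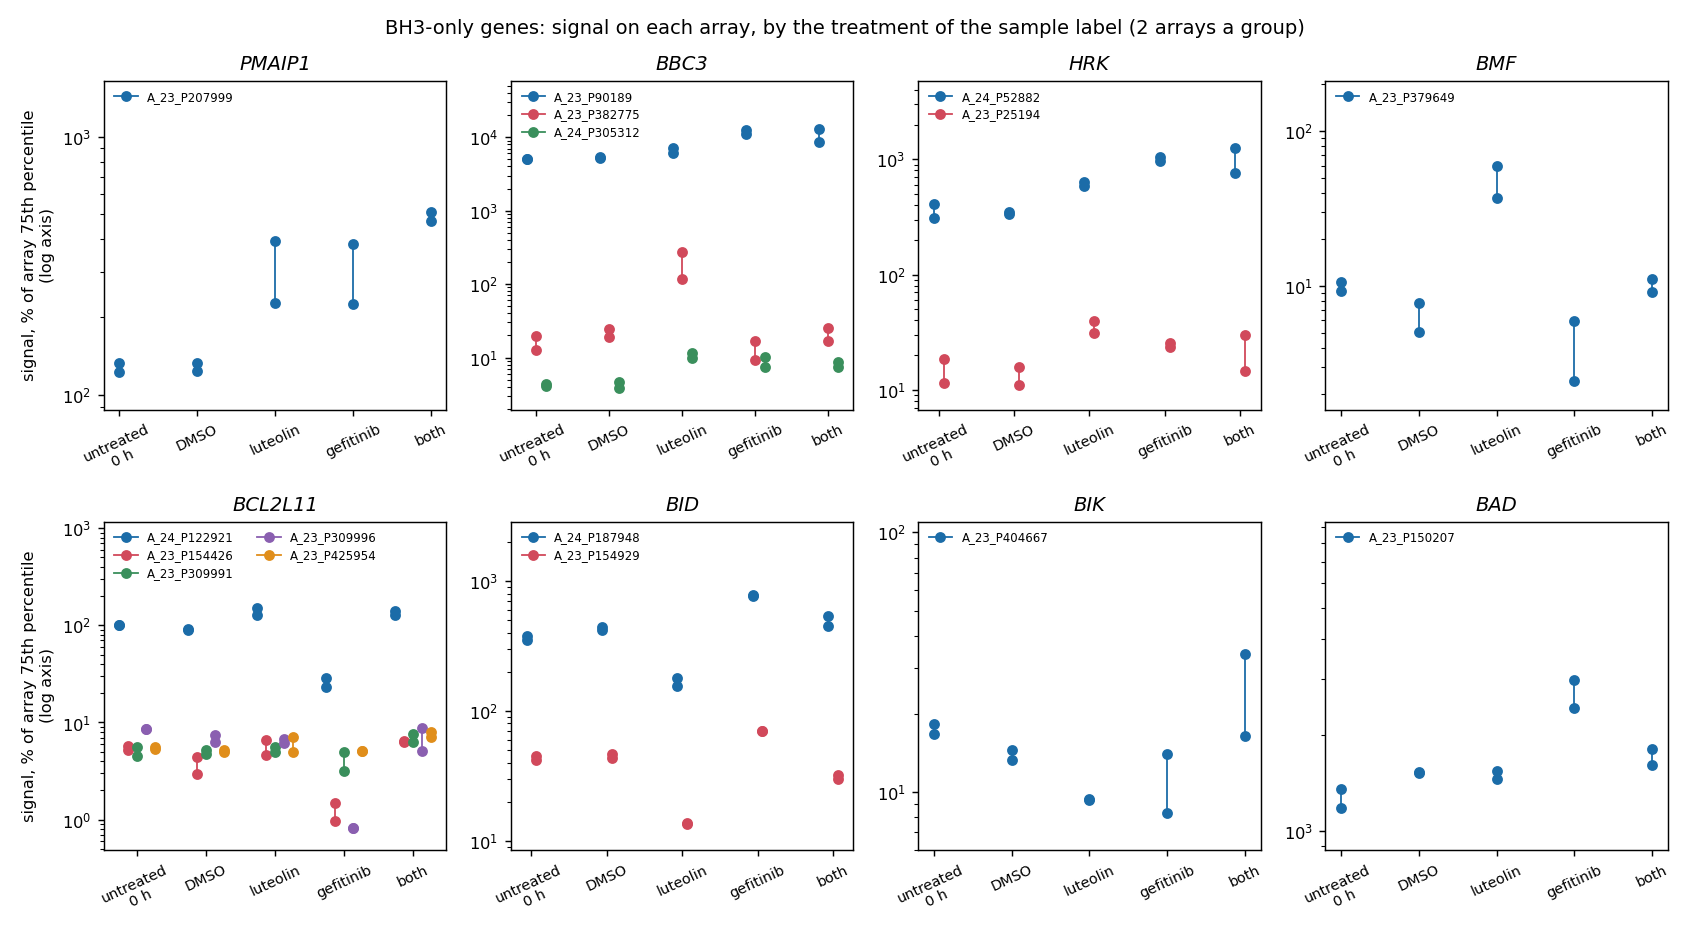
Signal of each probe of the 8 genes on each of the 10 arrays, as a percentage of the 75th percentile of the array on a log axis, by the treatment of the sample label. Each point is 1 array, a line joins the 2 arrays of a group and a color marks a probe. PMAIP1 lies at 123% to 133% on the untreated and DMSO arrays and at 225% to 509% on the drug-treated arrays, and the BCL2L11 probes A_23_P154426 and A_23_P309996 were not well above background on the gefitinib-labelled arrays.

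Noxa, which binds and neutralises MCL1, was the only member called in all 3 drug-treated groups by its brightest probe. Its probe at chr18:55721258-55721317 (hg18, NM_021127) is printed on 10 spots, whose coefficient of variation within an array was 2.63% to 5.99%. PMAIP1 read 123% and 133% on the untreated arrays and 124% and 133% with DMSO. It read 228% and 394% on the luteolin-labelled arrays, 384% and 225% on the gefitinib-labelled arrays, and 474% and 509% on those with both labels. In this scaled signal no drug-treated array overlapped the controls, and the arrays with both labels were above all others. Before scaling to the 75th percentile, PMAIP1 read 1669 and 1714 with DMSO and 2676 and 4102 for luteolin. It read 2500 and 1416 for gefitinib and 4097 and 2750 for both. Against DMSO the log2 change was 1.22 ± 0.31 (SE, n = 2 arrays a group; adjusted p = 0.0214 in limma) on the luteolin-labelled arrays. It was 1.20 ± 0.31 (adjusted p = 0.0119) on the gefitinib-labelled arrays. It was 1.94 ± 0.31, a 3.82-fold rise (adjusted p = 0.00308), on those with both labels. The excess of the arrays with both labels over luteolin was 0.71 (95% interval 0.01 to 1.41, adjusted p = 0.0917) and over gefitinib 0.74 (95% interval 0.04 to 1.44, adjusted p = 0.0776), neither of which passed the threshold. The call for luteolin was lost without either DMSO array (adjusted p = 0.112 and 0.0886) or without the second luteolin array (0.145), and that for gefitinib without the first DMSO array (0.06) or the first gefitinib array (0.0709).

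Puma, which binds all the survival proteins of the family, was read by 3 probes that disagreed. The probe A_23_P382775 at chr19:52416014-52416073 (hg18, NM_014417) read 19.2% and 24.6% with DMSO and 12.9% and 19.5% in untreated cells. It rose to 116% and 272% on the luteolin-labelled arrays, and read 16.6% and 9.14% on the gefitinib-labelled arrays and 25.4% and 17.0% on those with both labels. The luteolin-labelled arrays stood far above all others for this probe and the remaining drug-treated groups overlapped the controls. The log2 change for luteolin was 3.03 ± 0.45, or 8.19-fold (adjusted p = 0.00268). The neighbouring probe A_24_P305312 at chr19:52416927-52416986 was dim, at 4.63% and 3.83% with DMSO. It read 9.73% and 11.7% on the luteolin-labelled arrays, 10.3% and 7.34% on the gefitinib-labelled arrays and 7.54% and 8.64% on those with both labels. Its log2 change was 1.34 (adjusted p = 0.00346), 1.05 (0.00465) and 0.94 (0.0108), so that it passed the 2-fold threshold in the first 2 groups. The second call was lost without the second DMSO array (0.91) or the first gefitinib array (0.80), and the third change passed 2-fold without the first DMSO array (1.08) or the first array with both labels (1.04). Quantile normalization gave 0.98 and normexp background correction 0.91 for gefitinib, and normexp 0.79 for luteolin, all under 2-fold.
The third Puma probe, A_23_P90189 at chr19:52423274-52423333, was among the brightest on the array, with 99.1% to 99.5% of probes below it. It read 5138% and 5329% with DMSO and 6004% and 7066% on the luteolin-labelled arrays. It read 11099.6% and 12541% on the gefitinib-labelled arrays and 8639% and 12916% on those with both labels. Before scaling to the 75th percentile, its signal was 69355 and 68381 with DMSO and 70428 and 73589 for luteolin. It was 72222 and 78807 for gefitinib and 74694 and 69718 for both. Its log2 change was 0.32 (adjusted p = 0.313) for luteolin, 1.17 (0.00295) for gefitinib and 1.01 (0.00799) for both. Under quantile normalization the last 2 values became 0.33 and 0.35 and were no longer called, and with normexp they were 0.9999 and 0.95. The last call was also lost without the first DMSO array (adjusted p = 0.0531) or without the second array with both labels (0.72). Across the 10 arrays this probe correlated at r = -0.24 with A_23_P382775 and at 0.65 with A_24_P305312. For luteolin, BBC3 was not called by its brightest probe, and the other probes A_23_P382775 and A_24_P305312 passed the test. On the arrays with both labels only A_23_P90189 did.

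Harakiri, a member known mostly from neurons, was read by 2 probes that moved the same way to different extents. The brighter probe A_24_P52882 at chr12:115803353-115803412 (hg18, NM_003806) read 311% and 409% in untreated cells and 336% and 348% with DMSO. It read 581% and 638% on the luteolin-labelled arrays, 1047% and 974% on the gefitinib-labelled arrays, and 761% and 1256% on those with both labels. All 6 drug-treated arrays lay above all 4 controls. The log2 change was 0.83 (adjusted p = 0.04), under the 2-fold threshold, for luteolin. It was 1.56 ± 0.25 (0.00187) for gefitinib and 1.52 ± 0.25 (0.0034) for both. The dimmer probe A_23_P25194 at chr12:115783436-115783495 read 11.1% and 15.9% with DMSO, 31.1% and 39.5% for luteolin, 23.6% and 25.7% for gefitinib and 14.7% and 30.1% for both. Its arrays with both labels overlapped the controls, and it was called for luteolin alone (1.40, adjusted p = 0.026), a call that was lost when any of the 2 luteolin or 2 DMSO arrays was left out (adjusted p = 0.0585 to 0.155). Its change for both passed the test without the first array with both labels (1.18, adjusted p = 0.0295), and with slide as a block its change for gefitinib did (1.19, adjusted p = 0.01).

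Bmf, which is tied to the cytoskeleton in resting cells, showed the largest change among the brightest probes on the luteolin-labelled arrays. Its probe at chr15:38167742-38167801 (hg18, NM_001003940) read 9.36% and 10.67% in untreated cells and 5.05% and 7.73% with DMSO. It read 36.8% and 59.8% on the luteolin-labelled arrays, 5.97% and 2.44% on the gefitinib-labelled arrays and 9.13% and 11.1% on those with both labels. The luteolin-labelled arrays stood apart from the other 8. The log2 change was 2.91 ± 0.42, or 7.51-fold (adjusted p = 0.00243), and the change within slide 1 and within slide 2 was 2.87 and 2.95. On the gefitinib-labelled arrays 1 of 2 was well above background and the change was -0.71 (adjusted p = 0.184). Without the first gefitinib array the comparison passed the test (adjusted p = 0.0233), but then rested on an array on which BMF was not well above background, so that its size is not given. On those with both labels it was 0.69 (adjusted p = 0.215).

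Bim, the member that responds to loss of growth factor signaling in many cells, went down on the gefitinib-labelled arrays. Its brightest probe A_24_P122921 at chr2:111642363-111642422 (hg18, NM_138621) read 99.6% and 101% in untreated cells and 90.1% and 90.8% with DMSO. It read 28.4% and 23.2% on the gefitinib-labelled arrays, below every other array, against 129% and 149% on the luteolin-labelled arrays and 139% and 129% on those with both labels. The log2 change was -1.82 ± 0.16 for gefitinib, a 3.53-fold fall (adjusted p = 0.000184), and on slide 1 alone it was -1.67. For luteolin it was 0.62 (adjusted p = 0.0277) and for both 0.57 (0.0272), each under the 2-fold threshold. All 4 arrays lay above the controls in this scaled signal. Before scaling to the 75th percentile, the probe read 1397 and 1189 in untreated cells and 1216 and 1166 with DMSO. It then read 1510 and 1556 for luteolin, 185 and 146 for gefitinib and 1204 and 694 for both.
The other Bim probes were dim. A_23_P154426 at chr2:111640036-111640095 read 2.96% and 4.39% with DMSO, and 1.47% and 0.966% on the gefitinib-labelled arrays, where it was not well above background. It was at least 1.20-fold lower there, a limit under 2-fold (adjusted p = 0.00268 in limma). A_23_P309996 at chr2:111627828-111627887, designed on the transcript AB071195, read 7.47% and 6.24% with DMSO and 0.818% and 0.825% on the gefitinib-labelled arrays, and was at least 2.27-fold lower (adjusted p = 0.000125). These lower limits set each undetected array to the lowest signal well above background on it, or to the signal of the probe itself where that was higher. The adjusted p values are for the measured signals and not for these limits. A_23_P309991 and A_23_P425954, at chr2:111638189-111638248 and chr2:111638203-111638262, read 3.19% to 7.9% on all 10 arrays and were called in 0 of the 3 comparisons. On the gefitinib-labelled arrays 3 of the 5 Bim probes were therefore called lower, A_23_P154426 with a lower limit under 2-fold. The other 2 did not pass the test, with log2 changes of -0.31 and -0.01. With normexp background correction in place of the processed signal, the changes of the dim probes A_23_P154426 and A_23_P309996 were 0.28 and -0.23, and neither was called. The median over the 5 probes was -0.39 for gefitinib (adjusted p = 0.184).

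**Figure D2:**
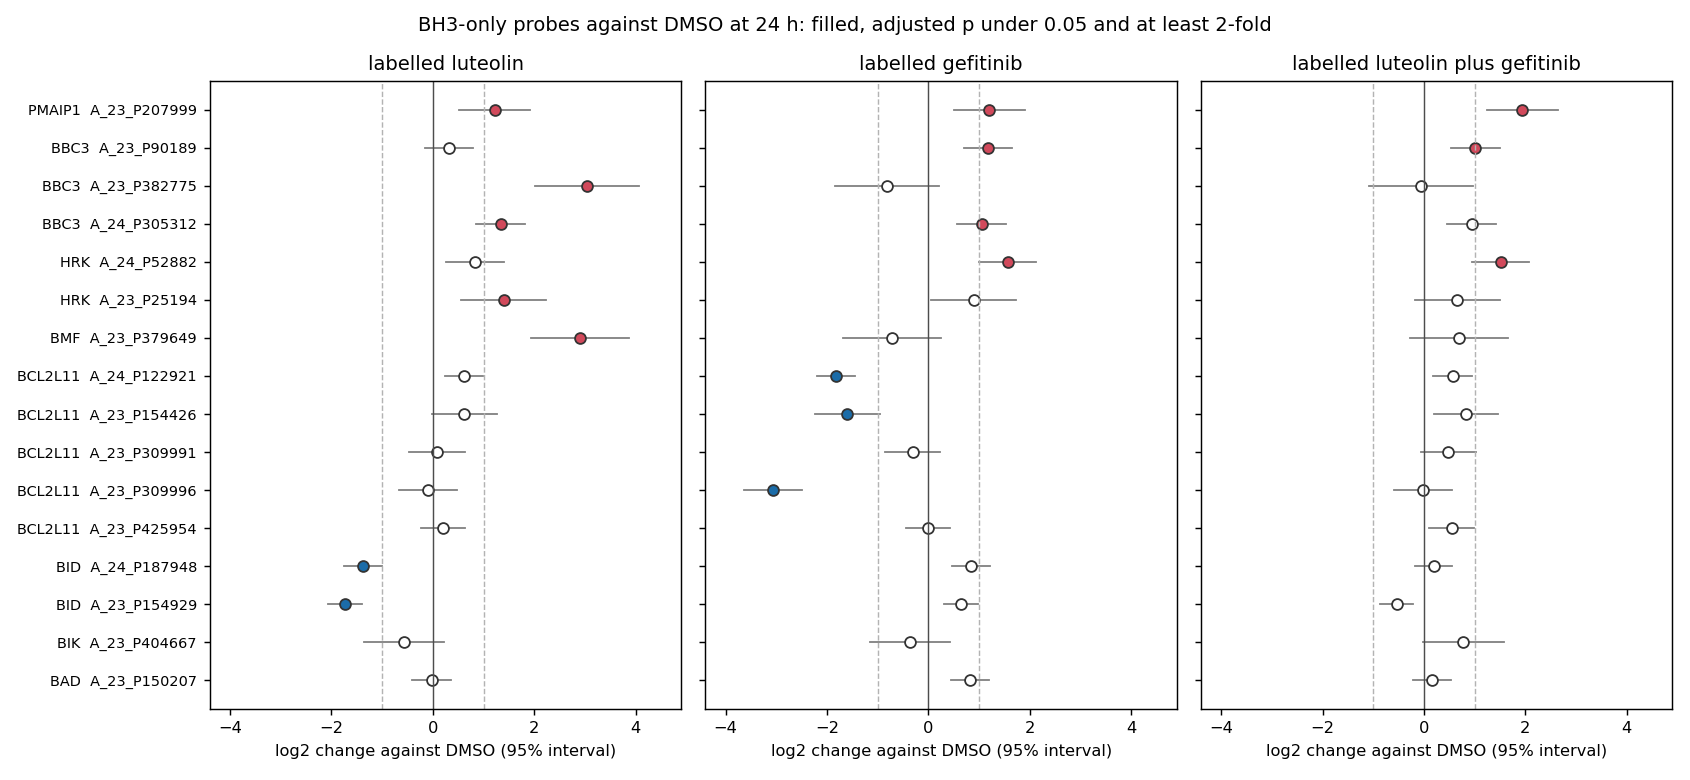
Log2 change against DMSO of each of the 16 member probes in the 3 drug-treated groups, with its 95% interval from limma. Filled points pass both thresholds of a call, dashed lines mark a log2 change of 1 in either direction. PMAIP1 is filled in all 3 panels, BCL2L11 is filled below 0 in the gefitinib panel for 3 probes, and both BID probes are filled below 0 in the luteolin panel.

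Bid, which links death receptors to the mitochondria, was read by 2 probes that moved together (r = 0.91 over the 10 arrays). A_24_P187948 at chr22:16598182-16598241 (hg18, NM_197966) read 349% and 374% in untreated cells and 418% and 445% with DMSO. It read 154% and 178% on the luteolin-labelled arrays, 769% and 779% on the gefitinib-labelled arrays and 448% and 541% on those with both labels. In this scaled signal the luteolin-labelled arrays lay below and the gefitinib-labelled arrays above all others. Before scaling to the 75th percentile, the probe read 5645 and 5715 with DMSO and 5005 and 4893 on the gefitinib-labelled arrays. The log2 change was -1.38 ± 0.16 for luteolin, a 2.61-fold fall (adjusted p = 0.0012), and 0.84 (adjusted p = 0.00396) for gefitinib, under the 2-fold threshold. A_23_P154929 at chr22:16598038-16598097 read 43.1% and 46.8% with DMSO and 13.7% and 13.5% on the luteolin-labelled arrays, a change of -1.73 ± 0.14 (adjusted p = 0.000487). On the arrays with both labels the 2 probes differed in sign, at 0.19 (adjusted p = 0.373) and -0.54 (0.0204).

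Bad and Bik were not called in any comparison with DMSO. Bad is the member whose binding to BCL-XL is blocked by phosphorylation, and its probe at chr11:63794098-63794157 (hg18, NM_004322) was bright. BAD read 1537% and 1519.7% with DMSO, 1459% and 1549% on the luteolin-labelled arrays, 2979% and 2443% on the gefitinib-labelled arrays and 1612% and 1806% on those with both labels. The gefitinib-labelled arrays stood above the rest in this scaled signal, with a log2 change of 0.82 (adjusted p = 0.00476) that stayed under 2-fold. Before scaling to the 75th percentile, BAD read 20742 and 19500 with DMSO and 19386 and 15354 on the gefitinib-labelled arrays. Bik, which acts largely at the endoplasmic reticulum, was read at chr22:41855439-41855498 (hg18, NM_001197). BIK read 14.5% and 13.3% with DMSO, 9.35% and 9.37% on the luteolin-labelled arrays, 14.0% and 8.33% on the gefitinib-labelled arrays and 34.2% and 16.5% on those with both labels. The last 2 arrays differed more from each other than either group of controls did, and the log2 change was 0.77 (adjusted p = 0.104), which passed the test without the second of them (adjusted p = 0.0237).

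Between 0 h and 24 h with DMSO, 0 of 16 member probes were called, and 0 had an unadjusted p under 0.05 in limma. Over all genes 0.0355% were called in that comparison. The member log2 changes ran from -0.68 for BMF to 0.46 for BBC3 probe A_23_P382775, with adjusted p of 0.853 and above. Set against the untreated arrays, 3 members were called on the luteolin-labelled arrays, 7 on the gefitinib-labelled arrays and 3 on those with both labels, where 16.1%, 29% and 19.8% of all genes were called. The 3 members beyond those called against DMSO were BAD (1.09, adjusted p = 0.00165), BID (1.10, 0.00146) and BMF (-1.39, 0.0237) on the gefitinib-labelled arrays. The BMF call was lost with normexp (-0.20, adjusted p = 0.487), without the second gefitinib array (-0.74, 0.126), without the second untreated array (0.101) and with only these groups in the fit (0.0539), and BMF was well above background on 1 of 2 gefitinib arrays. With quantile normalization BAD changed by 0.45, BID by 0.78 and BBC3 by 0.36 on the gefitinib-labelled arrays, all under 2-fold and not called. Without the first untreated array BAD changed by 0.99 there, under 2-fold, and PMAIP1 and BMF were not called. Without the second luteolin array PMAIP1 and BMF were not called for luteolin.

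The drug-treated groups were then compared with each other. Luteolin-labelled arrays exceeded the gefitinib-labelled arrays in BMF by 3.62 (adjusted p = 0.000285) on the log2 scale, or by 2.02 (4.3e-05) with normexp, where 1 of 2 gefitinib arrays was well above background for BMF. They exceeded them by 2.43 in BCL2L11 (4.8e-05) and by 3.85 in BBC3 probe A_23_P382775 (0.000288) on the log2 scale. In the brightest BBC3 probe A_23_P90189 they were instead lower, at -0.86 (adjusted p = 0.00825), under 2-fold. They were lower in BID, by a change of -2.22 (adjusted p = 6.05e-05). PMAIP1 differed by 0.03 between these groups, with a 95% interval of -0.67 to 0.73. By brightest probe 3 of 8 members were called, where 36.6% of all genes were. Between the arrays with both labels and the luteolin-labelled arrays, BID was higher by 1.57 (adjusted p = 0.00055) and BIK by 1.34 (0.0167), and BMF was lower, at -2.22 (0.00493), which made 3 of 8 members against 21% of all genes. Between the arrays with both labels and the gefitinib-labelled arrays, BCL2L11 was higher by 2.38 (adjusted p = 5.29e-05), BIK by 1.13 (0.0272) and BMF by 1.40 (0.0255), again 3 of 8 members against 27% of all genes. The size of the BMF difference is not settled, since with normexp it was 0.51 (adjusted p = 0.121) and without the second gefitinib array, on which BMF was not well above background, it was 0.75 (0.139). With slide as a block it was 0.96 (adjusted p = 0.0972). BIK was higher by 0.75 with normexp, under 2-fold. Several of these calls rested on 1 array. BIK was not called against luteolin without either luteolin array (adjusted p = 0.065 and 0.0723) or without the first array with both labels (0.82 in log2 change). BIK and BMF were not called against gefitinib without the second gefitinib array (adjusted p = 0.157 and 0.139) or without the first array with both labels (0.143 and 0.0655), nor BMF without the second (0.1). PMAIP1 was called higher with both labels than with luteolin without the second luteolin array (1.11, adjusted p = 0.0439), and higher than with gefitinib without the first gefitinib array (1.13, adjusted p = 0.0248). HRK was called higher than with luteolin without the first array with both labels (1.04, adjusted p = 0.00643).

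The departure from additivity was the change with both labels minus the sum of the changes with each label, on the log2 scale. At an adjusted p under 0.05, 8 of 16 member probes departed, where 33.5% of all probes did. BCL2L11 probe A_24_P122921 had single changes summing to -1.20 and a change of 0.57 with both, a departure of 1.77 ± 0.23 (adjusted p = 0.00116). BBC3 probe A_23_P382775 had a sum of 2.22 and a change of -0.06 with both, a departure of -2.28 ± 0.64 (adjusted p = 0.0257). PMAIP1 summed to 2.42 and changed by 1.94 with both (departure -0.48 ± 0.43, adjusted p = 0.409). The departures of BBC3 probe A_24_P305312 and of the 3 BCL2L11 probes passed the threshold whichever array was left out. With normexp the departures of the dim BCL2L11 probes A_23_P154426 and A_23_P309996, which were not well above background with gefitinib, were 0.12 (adjusted p = 0.757) and 0.62 (0.0478), and that of A_24_P305312 was -0.89 (0.0172). That of BBC3 probe A_23_P382775 did not pass without either DMSO array (adjusted p = 0.0804 and 0.0522), the second luteolin array (0.0715), the first gefitinib array (0.0733) or the second array with both labels (0.0714). The 3 terms exchange their places under the treatments of the file names.

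**Figure D3:**
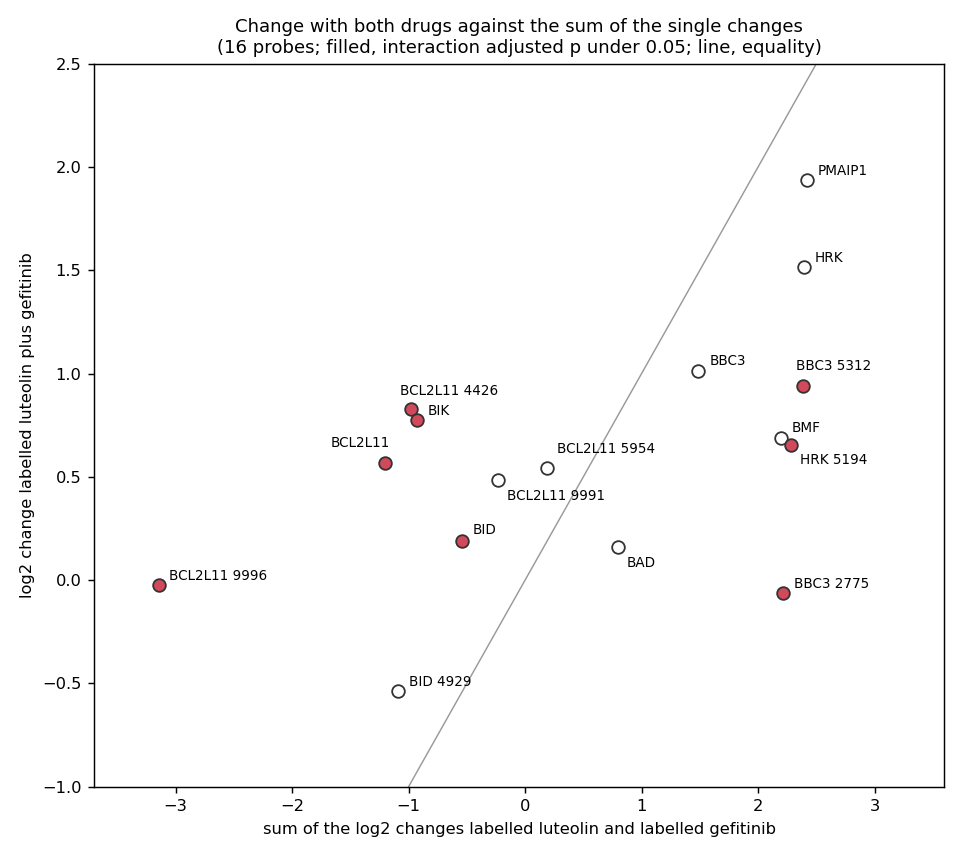
Log2 change against DMSO on the arrays with both labels (vertical axis) against the sum of the changes on the arrays with either label alone (horizontal axis), for the 16 member probes. The line marks equality, filled points have an interaction adjusted p under 0.05, and probes other than the brightest of a gene carry the last 4 digits of their name. BBC3 probe A_23_P382775 lies far below the line at -0.06 and BCL2L11 lies above it at 0.57.

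Among the genes of the proteins that BH3-only proteins bind, BAK1 showed the largest change. Of 9 multidomain family members, 1 rose on the luteolin-labelled arrays, 2 rose and 2 fell on the gefitinib-labelled arrays, and 1 rose on those with both labels. The last count was lower without either DMSO array or without the second array with both labels, and higher without the first. The count over all genes shifted the same way. Their median log2 change was 0.17, 0.03 and 0.20, against 0.08, 0.22 and 0.16 for all genes. Of all genes 7.22% rose and 6.17% fell for luteolin, 15.6% and 14.3% for gefitinib, and 12.1% and 7.69% for both. BAK1, a pore-forming partner, read 291% and 319% with DMSO and 43.2% and 32.4% on the gefitinib-labelled arrays, a change of -3.03 ± 0.22 (adjusted p = 8.73e-05). BAX, the other pore former, read 335% and 366% with DMSO and 684% and 742% there, a change of 1.02 ± 0.25 (adjusted p = 0.00973). In this scaled signal the 2 pore formers moved in opposite directions on the same arrays. The 75th percentile itself was 1350 and 1283 on the DMSO arrays and 651 and 628 on the gefitinib-labelled arrays. Its part in the BAX rise was not tested except by quantile normalization. The survival gene BCL2 changed in the scaled signal by 1.60 (adjusted p = 0.00272) on the gefitinib-labelled arrays and by 1.13 (0.0149) on those with both labels. BCL2L10, a dim family member, read 21.7% and 23.8% on the luteolin-labelled arrays against 5.9% and 6.26% with DMSO, a change of 1.90 (adjusted p = 0.00128). On the gefitinib-labelled arrays BCL2L10 was not well above background and was at least 1.93-fold lower, a limit under 2-fold. Its call there, with an adjusted p of 0.00245 in limma, is for the measured signals and not for this limit. MCL1, BCL2L1, BCL2L2, BCL2A1 and BOK were called in 0 of the 3 comparisons.

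Of 9 genes for later steps, 1 rose on the luteolin-labelled arrays, 1 rose and 2 fell on the gefitinib-labelled arrays and 1 rose on those with both labels. In the same comparisons 7.22% of all genes rose and 6.17% fell, 15.6% rose and 14.3% fell, and 12.1% rose and 7.69% fell. The medians were 0.19, -0.28 and 0.25, against 0.08, 0.22 and 0.16 for all genes. The luteolin count changed without the second DMSO or the first luteolin array, and that for both without the first array with both labels. The counts over all genes changed in these fits too. APAF1, the scaffold of the apoptosome, read 9.52% and 8.57% with DMSO and 3.57% and 2.49% on the gefitinib-labelled arrays, where 1 of 2 was well above background (-1.60, adjusted p = 0.0023). CASP8, which cleaves Bid, rose there by 1.31 (adjusted p = 0.0021) in the signal scaled to the 75th percentile. That percentile was 651 and 628 on these arrays and 1350 and 1283 with DMSO, and its part in this rise was not tested except by quantile normalization. XIAP, an inhibitor of caspases, rose in the scaled signal by 1.11 (adjusted p = 0.00202) on the luteolin-labelled arrays and by 1.12 (0.00194) on those with both labels.

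**Figure D4:**
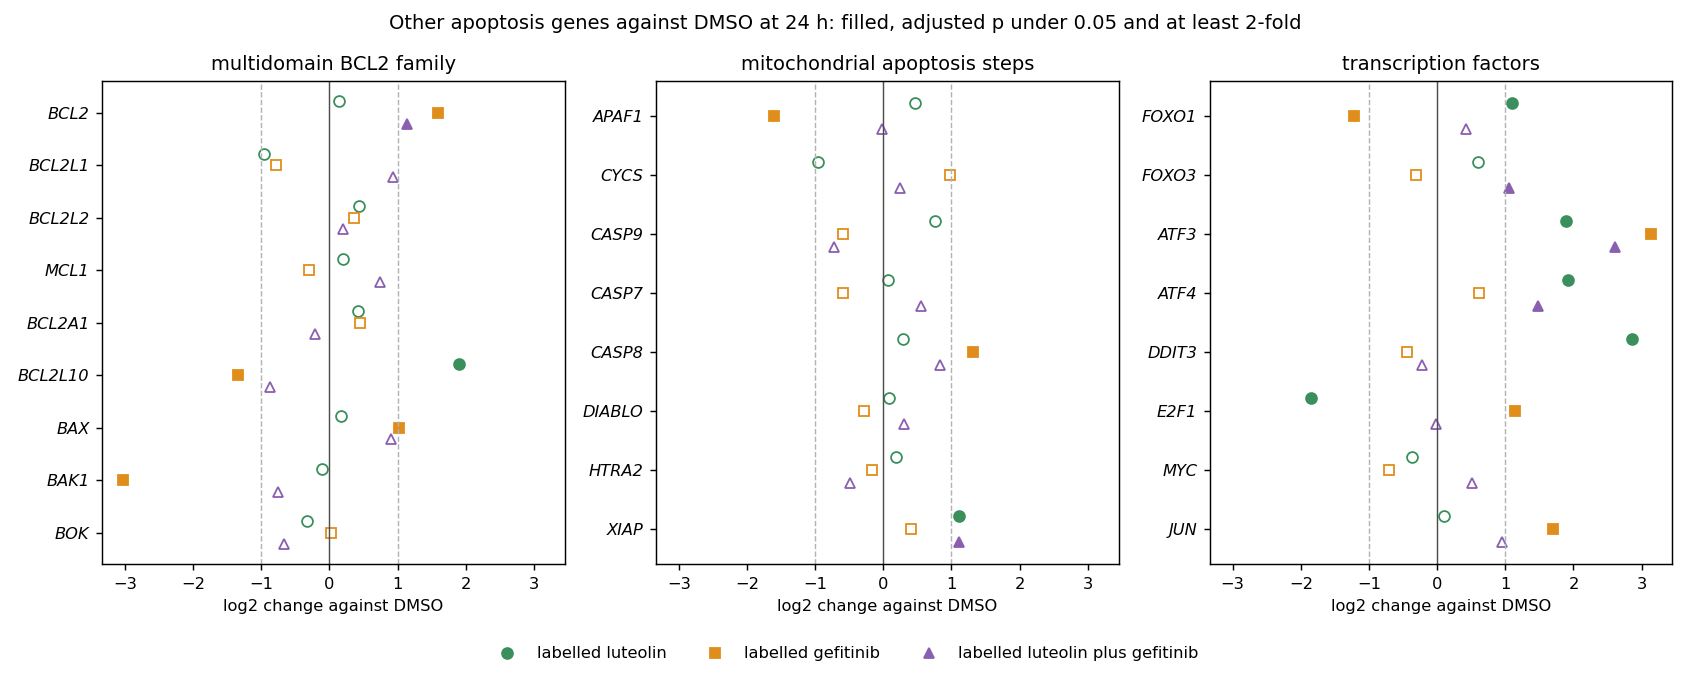
Log2 change against DMSO of 9 multidomain BCL2 family genes, 8 of 9 genes of later mitochondrial steps and the 8 measurable of 11 transcription factors, for the 3 drug-treated groups by label. Filled markers pass both thresholds of a call, and dashed lines mark a log2 change of 1. BAK1 lies at -3.03 for gefitinib, and DDIT3 at 2.86 for luteolin.

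Of 11 transcription factors known to act on BH3-only genes, 8 could be tested, since the probes of the other 3 did not pass the filter. On the luteolin-labelled arrays 4 rose and 1 fell, on the gefitinib-labelled arrays 3 rose and 1 fell, and on those with both labels 3 rose and 0 fell. Of all genes 7.22% rose and 6.17% fell, 15.6% rose and 14.3% fell, and 12.1% rose and 7.69% fell in the same comparisons. The 5 calls for luteolin became fewer without either DMSO array or without the second luteolin array, as did the calls over all genes. ATF3, a stress factor that can act on the Noxa gene, read 76.4% and 82.1% with DMSO. It read 194% and 442% on the luteolin-labelled arrays, 1009.6% and 485% on the gefitinib-labelled arrays and 525% and 442% on those with both labels, and was called in all 3 (1.88, 3.14 and 2.60, adjusted p = 0.0145, 0.00099 and 0.00344). ATF4 rose for luteolin (1.92, adjusted p = 0.00365) and for both (1.48, 0.00812), with 0.61 (0.126) for gefitinib.
DDIT3, which encodes CHOP, read 62.4% and 79.9% with DMSO and 318% and 828% on the luteolin-labelled arrays, a change of 2.86 ± 0.49 (adjusted p = 0.00485). It read 79.1% and 34.4% on the gefitinib-labelled arrays and 58.5% and 62.1% on those with both labels, and the difference between the arrays with both labels and the luteolin-labelled arrays was -3.09 (adjusted p = 0.00249). FOXO1, a forkhead factor restrained by the AKT kinase, rose for luteolin (1.10, adjusted p = 0.0192) and fell for gefitinib (-1.22, 0.00649). FOXO3 rose by 1.06 (adjusted p = 0.00513) on the arrays with both labels. E2F1 fell for luteolin (-1.85, adjusted p = 0.00216) and rose for gefitinib (1.14, 0.00728), and JUN rose for gefitinib (1.70, 0.00202). MYC was called in 0 of the 3 comparisons.

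The genes whose signal followed a member most closely were sought among 16256 genes well above background on all 10 arrays, as a description over 10 arrays that share their controls. BMF was followed by MNT (r = 0.97), a partner of MAX, and EIF2AK3 (r = 0.96), which encodes the kinase PERK. BCL2L11 was followed by THC2543120, a transcript cluster without a gene name, and CCDC142 (r = 0.99 for each). PMAIP1 was followed by LOC157562 (r = 0.99) and AK098597 (r = 0.98).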

How the data were processed

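The authors deposited Agilent Feature Extraction output of 10 single-color arrays. Its processed signal is an intensity on a linear scale with background and spatial trend subtracted and no scaling between arrays. These intensities also made up the deposited table of values, and 0 per-sample columns were unused. R 4.3.3 was used with limma 3.58.1 and data.table (version 1.17.8). Control and outlier spots were removed, log2 values were set against the 75th percentile of each array, and spots of a probe were averaged. A probe was kept where it was well above background on both arrays of any group (28776 of 41000). All 10 arrays entered one limma fit of the 5 groups (lmFit, eBayes), adjusted by Benjamini-Hochberg across kept probes. A call required an adjusted p under 0.05 and, outside the interaction, a 2-fold change. The brightest probe by mean log2 signal stands for a gene, and 23958 probes took RefSeq symbols. Every member probe is reported, with each gene of the other lists that was called against DMSO, and the 2 best correlated genes for the member changed most in each comparison. Some genes of the other lists and markers count in the totals and are not reported here. Members and lists were chosen with earlier results of these data known. Probe coordinates are those of the files on hg18, and promoters are from RefSeq on GRCh38.p14. The fit was checked on simulated arrays. Alternatives were normexp (offset 50), quantile normalization, 2 other filters, the table of values, a replicate or slide block, fits restricted to the compared groups, file-name treatments, no minimum fold, the median over probes, the methods' one-sample t-test and leaving out each array. With 2 arrays a group, precision is limited.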

Additional observations from a re-analysis of the deposited data

Results flagged for a closer look

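The response to both labels departed from the sum of the single responses in 8 member probes, by the interaction in limma at an adjusted p under 0.05. Departures above the sum were 1.77 (adjusted p = 0.00116), 1.80 (0.00949) and 3.12 (0.000681) for the BCL2L11 probes A_24_P122921, A_23_P154426 and A_23_P309996, of which the last 2 were not well above background on the gefitinib-labelled arrays, so that their size is not settled. They were 1.70 (0.029) for BIK and 0.73 (0.0409) for BID probe A_24_P187948. Departures below the sum were -2.28 (0.0257) and -1.45 (0.00755) for the BBC3 probes A_23_P382775 and A_24_P305312, and -1.63 (0.0418) for HRK probe A_23_P25194. Among all probes, 33.5% passed the same threshold. Grouped by the file names, the same BCL2L11 departures were -2.999, -3.04 and -2.94. The 3 BCL2L11 departures and that of BBC3 probe A_24_P305312 passed the threshold whichever array was left out, and each of the other 4 missed it without some array. With normexp the departure of A_23_P154426 was 0.12 (adjusted p = 0.757) and that of A_23_P309996 was 0.62 (0.0478).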

How the results depend on the processing

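Signal over background sets what these arrays can show, and BMF, BIK, the dim probes of BCL2L11 and BBC3 and BCL2L10 lie close to it. The counts over the other gene lists, between drug groups and for the interaction were put through the alternatives after the data had been seen. The main counts are those of the report. For luteolin, gefitinib and both against DMSO, 5, 4 and 3 transcription factors, 1, 4 and 1 family partners and 1, 3 and 1 later steps were called. By brightest probe 3 of 8 members were called for the interaction, where of all 19718 genes 3532 lay above and 3213 below the sum. The cause of the differences below was not tested except where the setting itself removes probes or relabels arrays.

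With the median over the probes, 5, 2 and 2 members were called against DMSO for luteolin, gefitinib and both, and 5, 4 and 1 against 0 h. By that rule 13%, 29.5% and 19.1% of all genes were called against DMSO. Against 0 h, of 21188 genes, 1631 rose and 1677 fell for luteolin, 3040 and 2983 for gefitinib, and 2387 and 1672 for both. Family partners called were then 2, 2 and 0. In BBC3 the median gave -0.82 (gefitinib) and -0.062 (both) against DMSO, -0.36 for gefitinib against 0 h, 3.85 for luteolin minus gefitinib and -3.10 for both minus luteolin, all opposite in sign to the brightest probe. Without the minimum fold, 5 members were called for luteolin against DMSO, 6 between luteolin and gefitinib and 5 between both and gefitinib. There were then 2 partners and 2 later steps for luteolin and 7 partners and 3 later steps for both. Over all 19718 genes, 2813 then rose and 2321 fell for luteolin against DMSO, and 4943 and 3204 for both. Between luteolin and gefitinib 5361 were higher and 6546 lower, and between both and gefitinib 4826 and 4510. Normexp left 1 member between both and gefitinib, 5 for the interaction and 2 partners for gefitinib. Over all 19718 genes it called 1808 higher and 1135 lower, 2884 and 3239, and 2619 and 1334 in these comparisons. It gave 0.28 against DMSO and 0.046 against 0 h for BCL2L11 probe A_23_P154426 with gefitinib. Quantile normalization left 4 members for gefitinib against 0 h and 2 partners for both. Of all 19718 genes 1979 rose and 2967 fell in the first comparison, and 1693 and 1999 for both against DMSO. With no filter, 1 member was called between both and gefitinib and 1 for the interaction. Of 28090 genes, 3370 were then higher and 1911 lower, and 2880 and 2411 for the interaction. With probes detected on all arrays 0 partners were called for luteolin, where 1096 of 16289 genes rose and 937 fell. Only the groups compared gave 1 member between both and gefitinib, and slide as a block 5 for the interaction. Over all 19718 genes these settings called 3169 higher and 1796 lower, and 3280 and 2907.

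The methods' one-sample t-test, on 2 arrays, called 1, 2 and 1 members against DMSO for luteolin, gefitinib and both without adjustment, 0, 4 and 1 against 0 h, 1 between both and luteolin, 1 between both and gefitinib, 2 partners, 1 later step and 2 factors for gefitinib, 0 factors for luteolin and 0 partners for both. Unadjusted, of all 19718 genes it called 700 higher and 424 lower for luteolin against DMSO, 1098 and 1172 for gefitinib, and 609 and 360 for both. Against 0 h these counts were 825 and 624, 1081 and 1212, and 598 and 367. They were 553 and 505 between both and luteolin, and 1402 and 589 between both and gefitinib. After Benjamini-Hochberg adjustment it called 0 of the members and listed genes in every comparison. Leaving out 1 array at a time left 1 array in a group. It changed the number of members called for gefitinib and for luteolin against 0 h, between both and gefitinib, and for the interaction. It also changed the number of partners for both, of later steps for luteolin and for both, and of factors for luteolin. The counts over all genes changed in the same fits, so that these shifts are not read as a trait of the members or listed genes. The report names the arrays that decide these counts, except for the interaction. Its count was lower without either DMSO or either luteolin array and higher without the second array with both labels.

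The replicate numbers were not taken as pairs, since the labels tie them to no shared batch and the replicate differences of the 10 group pairs correlated at -0.098 to 0.293, over 0.1 in 6 of them. Most arrays of a number also share a slide. The replicate block gave 3, 4 and 3 members against DMSO. Of all 19718 genes 1436 then rose and 1253 fell for luteolin, 3099 and 2818 for gefitinib, and 2413 and 1544 for both.

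Grouping by the file names gives each contrast the arrays of another. The BCL2L11 probes A_23_P154426 and A_23_P309996 were not well above background on the gefitinib-labelled arrays, so that their values against those arrays have no settled size. Their lower limits are 1.20-fold and 2.27-fold against DMSO, 1.84-fold and 2.13-fold against the luteolin-labelled arrays and 2.12-fold and 2.23-fold against those with both labels. Against 0 h, 3 members were then called for gefitinib and 7 for both, with 5 for the interaction. Of all 19718 genes 1629 rose and 1547 fell for gefitinib against 0 h, and 2857 and 2859 for both. For the interaction 3849 lay above and 4893 below the sum. Against DMSO, 3 factors were called for luteolin, 1 partner and 1 later step for gefitinib, and 4 partners and 3 later steps for both. Against DMSO, luteolin then changed BBC3 (A_23_P382775) by -0.062 and BID by 0.19. Gefitinib changed BCL2L11 by 0.62 in each of A_23_P154426 and A_24_P122921, BID by -1.73 and -1.38, BMF by 2.91 and BBC3 (A_23_P382775) by 3.03. Both drugs changed BCL2L11 by -1.60 and -1.82. Against 0 h, luteolin changed BID by 0.44, gefitinib changed BCL2L11 by 0.017 and 0.47, BID by -1.68 and -1.13, BMF by 2.23 and BBC3 by 3.49, and both changed BCL2L11 by -2.20 and -1.97 and BMF by -1.39. Luteolin minus gefitinib became 1.19 and 1.57 in BID, -2.22 in BMF, -3.10 in BBC3, 1.34 in BIK and -0.051 in BCL2L11. Both minus luteolin became -2.42 and -3.03 in BCL2L11 probes A_23_P154426 and A_23_P309996 and -1.13 in BIK. Both minus gefitinib became -2.22, -2.97 and -2.43 in BCL2L11, 2.36 and 2.22 in BID, -3.62 in BMF and -3.85 in BBC3. The interaction became 0.68 in BAD, -3.04, -2.94 and -2.999 in BCL2L11 and -0.57 in BIK.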
